A study of Homo sapiens with 2 samples.

Results

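HLA class II-high cells were the cells of MDA-MB-231 mammospheres whose transcripts came most from the genes of antigen presentation by HLA class II. MDA-MB-231 is an established human breast cancer cell line, and mammospheres are clusters of cells grown without attachment. Within each of 2 single-cell libraries, barcodes with at least 1000 unique molecular identifiers (UMIs, 1 for each captured transcript) were ranked by the share of their UMIs from CD74, HLA-DRA, HLA-DRB1, HLA-DPB1 and HLA-DMB together. The highest 10% formed the class II-high cells, and the lowest 50% formed the class II-low cells with which they were compared. They numbered 94 of 944 ranked barcodes in one library and 80 of 800 in the other, 174 of the 2000 barcodes deposited. The class II-low cells numbered 472 and 400.

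The first library came from cells kept for 30 days in flat culture in high-glucose medium at 0 mM metformin, labelled Wildtype, and the second from cells kept likewise at 2 mM, labelled Metformin. Metformin is a diabetes drug known to inhibit complex I of the mitochondrial respiratory chain. Both were then grown as mammospheres for 10 days and dissociated with trypsin and EDTA. The labels name no metformin for the mammosphere medium. Each dose was 1 library of 1 cell line, so the dose cannot be told apart from the library, and no test across samples could be made. Intervals below are exact 95% intervals that cover counting error only, and a gene is described as higher or lower where its ratio was at least 1.5-fold.

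HLA class II molecules are surface heterodimers that show peptides from the endosomal route to CD4+ T cells. CD74, the invariant chain, escorts newly made HLA-DR, HLA-DP and HLA-DQ pairs and blocks their groove, and HLA-DM helps exchange its remnant for a peptide. Professional antigen-presenting cells make these proteins at all times, while many other cells, carcinoma cells among them, can be brought to do so by interferon gamma through the coactivator CIITA. CIITA acts with RFX and NF-Y proteins on promoters that carry a conserved X box and, nearer the start, a Y box with the core ATTGG, which reads CCAAT on the other strand.

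The sequences just upstream of the transcription start are shown for CD74, HLA-DRB1, HLA-DPB1 and HLA-DMB of the rule and for HLA-DMA, all high in the same cells. They are RefSeq windows of 150 bases on GRCh38.p14, written 5′ to 3′ on the gene's own strand, with each ATTGG or CCAAT in capitals. They lie at chr5:150412911-150413060 (minus strand) for CD74, chr6:32589849-32589998 (minus) for HLA-DRB1, chr6:33075840-33075989 (plus) for HLA-DPB1, chr6:32941029-32941178 (minus) for HLA-DMB and chr6:32953098-32953247 (minus) for HLA-DMA.
CD74: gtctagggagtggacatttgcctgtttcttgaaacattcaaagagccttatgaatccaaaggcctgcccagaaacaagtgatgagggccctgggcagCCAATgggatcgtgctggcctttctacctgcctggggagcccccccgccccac
HLA-DRB1: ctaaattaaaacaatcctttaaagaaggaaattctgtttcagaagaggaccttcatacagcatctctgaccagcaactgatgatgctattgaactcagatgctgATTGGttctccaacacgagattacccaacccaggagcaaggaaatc
HLA-DPB1: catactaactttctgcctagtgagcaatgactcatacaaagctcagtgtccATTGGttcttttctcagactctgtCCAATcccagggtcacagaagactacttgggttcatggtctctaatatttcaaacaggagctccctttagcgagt
HLA-DMB: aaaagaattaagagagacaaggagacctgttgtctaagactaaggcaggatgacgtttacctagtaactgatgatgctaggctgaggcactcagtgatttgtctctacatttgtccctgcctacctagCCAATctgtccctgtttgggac
HLA-DMA: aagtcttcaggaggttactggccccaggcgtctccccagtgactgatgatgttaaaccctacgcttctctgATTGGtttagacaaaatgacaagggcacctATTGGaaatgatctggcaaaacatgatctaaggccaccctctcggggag
Of 14 class II genes looked for, 13 had a promoter in the RefSeq table, and HLA-DRA of the rule did not. Within 250 bases upstream, ATTGG or CCAAT occurred in 12 of these 13 genes. By windows this is 12 of their 14, against 32.0% of all 35116 promoter windows of that length. HLA-DPA1, also high in the same cells, was the gene without a match, and its windows are not shown. A wider pattern, AGNNAC on the gene's strand followed after 18 to 28 bases by ATTGG, was chosen after the sequences had been seen. It occurred in 6 of the 13 genes, each with a single window, and in 0.795% of all windows. A match is a string of letters and was not measured as a bound site here.

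The share of UMIs from the 5 genes chose the cells and is given as a description. At 0 mM the class II-high cells ranged from 0.667% to 1.74% of their UMIs, with a median of 0.861%, and the class II-low cells reached at most 0.233%, with a median of 0.116%. At 2 mM the class II-high cells ranged from 1.19% to 3.30%, with a median of 1.51%, and the class II-low cells reached at most 0.443%, with a median of 0.218%. At the cut the neighbouring shares were close. At 0 mM the last cell inside held 0.6667% and the first outside 0.6628%, and at 2 mM these were 1.18577% and 1.18393%. The class II-high cells are thus cut from a ranking, and whether they form a class of their own was not tested.

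**Figure D1:**
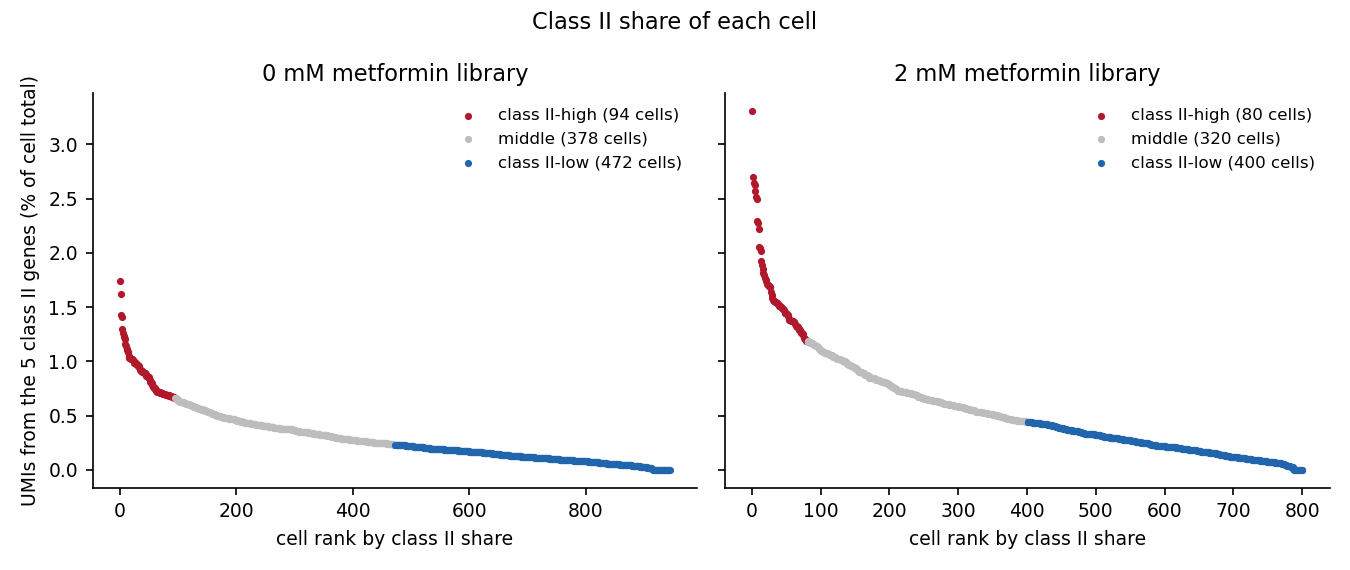
Share of each cell's UMIs from the 5 class II genes (vertical axis, percent) against the cell's rank within its library (horizontal axis), at 0 mM on the left and 2 mM on the right. Points are single cells coloured by group. The class II-high cells start at 0.667% at 0 mM and at 1.19% at 2 mM, and the cells next to the cut have close values.

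The whole distribution lay higher in the 2 mM library. Of its 800 cells, 246 (30.8%, 27.6% to 34.1%) reached the lowest share of the 0 mM class II-high cells, whereas 9 of 944 cells at 0 mM (0.953%, 0.437% to 1.80%) reached the lowest share of those at 2 mM. Levels are given as UMIs per 1000000 summed over the cells of a group (CPM). Over all ranked cells the 5 genes summed to 2952 CPM in the 0 mM library. In the 2 mM library they summed to 5151 CPM, which is 1.75 (1.70 to 1.79) times as much. Equal percentiles of the libraries thus mark cells of unlike class II level.

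The ranking of each cell rested on few UMIs. At 0 mM a class II-high cell held 7 to 131 UMIs of the 5 genes, with a median of 30.5, and at 2 mM 12 to 126, with a median of 41.5. All 5 genes were detected together in 27 of 94 cells at 0 mM and 41 of 80 at 2 mM, against 3 of 472 and 17 of 400 class II-low cells. When the UMIs of each cell were divided at random into 2 parts and the cells ranked in each, 52 of 94 cells (55.3%) and 50 of 80 (62.5%) were picked by both. In the part not used for ranking, the picked cells held 0.795% class II UMIs against 0.137% for the low cells at 0 mM, and 1.48% against 0.248% at 2 mM.

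The class II-high cells of the 0 mM library had nearly the depth of the class II-low cells, with median totals of 3715 and 3674.5 UMIs, and those of the 2 mM library were shallower, with 2400.5 against 3390. Mitochondrial transcripts made up 5.55% against 5.29% of their UMIs at 0 mM and 6.07% against 4.98% at 2 mM. No barcode occurred in both libraries. Among class II-high barcodes, 8 at 0 mM and 3 at 2 mM lay within 1 base of another deposited barcode of their library.

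Markers of MDA-MB-231 (VIM, CD44, KRT18, KRT8, LGALS1 and S100A4) summed to 8171 CPM in class II-high and 6884 CPM in class II-low cells at 0 mM, and to 6822 and 6084 CPM at 2 mM. At 0 mM each of these markers had a ratio above 1. At 2 mM LGALS1 and S100A4 did, at 1.10 and 1.54. VIM, CD44, KRT18 and KRT8 lay below 1 there, at 0.834, 0.795, 0.939 and 0.804. Markers of professional antigen-presenting and other cells were scarce. PTPRC, the pan-leukocyte phosphatase CD45, had 0 UMIs in both class II-high groups. Of the leukocyte list 3 of 4 markers were in the table, and nearly all of its UMIs came from LAPTM5, a lysosomal membrane protein, with 41 UMIs in class II-high and 175 in class II-low cells at 0 mM and 0 and 34 at 2 mM. The 4 myeloid and dendritic markers in the table, of 9 listed, summed to 5 and 11 UMIs at 0 mM and 6 and 21 at 2 mM, and 1 T cell marker had 0 UMIs in both class II-high groups. Fibroblast markers (6 of 6 in the table) gave 3 and 7 UMIs and then 0 and 9, and the endothelial marker KDR 1 and 1 and then 3 and 5. The class II-high cells held fewer UMIs in all. In CPM at 0 mM, leukocyte markers stood at 105 in class II-high and 78.5 in class II-low cells. Myeloid and dendritic markers stood at 12.5 and 4.85, fibroblast markers at 7.48 and 3.09, and KDR at 2.49 and 0.441. At 2 mM, in the same order, these were 4.21 and 20.4, 25.3 and 12.3, 0 and 5.26, and 12.6 and 2.92. None of the 5 B cell markers listed was in the table, so B cells could not be assessed by them. Relative to depth, the leukocyte, myeloid, fibroblast and endothelial lists were thus higher in class II-high cells at 0 mM. At 2 mM the myeloid list and KDR were higher and the leukocyte and fibroblast lists lower. All rested on few UMIs and were far scarcer than the MDA-MB-231 markers. The label of cancer cells was not tested further.

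Among the rule genes, CD74 was the most abundant in UMIs. At 0 mM it stood at 5027 CPM in class II-high and 832 CPM in class II-low cells, and at 2 mM at 7425 and 1358 CPM. HLA-DRA, the invariable chain of HLA-DR, stood at 2037 and 172 CPM at 0 mM and at 4252 and 436 CPM at 2 mM. Its partner HLA-DRB1 stood at 1017 and 69.7 CPM, then at 2806 and 243 CPM. HLA-DRB1 and HLA-DRB5 are close paralogs, and how the authors' counting divided reads between them is not given in the sources used here. HLA-DPB1, a chain of HLA-DP, stood at 556 and 47.2 CPM at 0 mM and 1264 and 135 CPM at 2 mM, and HLA-DMB, a chain of the peptide exchanger HLA-DM, at 175 and 17.2 CPM and at 350 and 35.0 CPM. CD74 was also the rule gene with most transcripts in the class II-low cells, and its ratio between the groups was the smallest of the 5.

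To see each gene without its own part in the ranking, the cells were ranked again on the other 4 genes. The ratio of CD74 between the groups was then 3.92 (3.69 to 4.17) at 0 mM and 4.11 (3.86 to 4.37) at 2 mM. HLA-DRA had ratios of 8.69 and 7.76, HLA-DRB1 of 10.6 and 8.47, HLA-DPB1 of 9.10 and 7.78, and HLA-DMB of 6.34 and 9.12. Each gene thus went with the other 4 in both libraries. The transcripts were nevertheless sparse per cell: after each cell was thinned to 1000 UMIs, HLA-DMB was seen in 17.0% of class II-high cells at 0 mM and HLA-DRA in 83.0%.

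Of the 9 class II chains outside the rule, HLA-DPA1 and HLA-DMA passed the minimum of 100 CPM and 30 UMIs in both libraries, and both were higher in class II-high cells in each, as were 1.47% of all genes compared in both. HLA-DPA1, the partner of HLA-DPB1, stood at 803 CPM in class II-high and 104 CPM in class II-low cells at 0 mM, and at 1656 and 214 CPM at 2 mM. These are ratios of 7.68 (6.48 to 9.13) and 7.75 (6.70 to 8.96). It was detected in 81 of 94 and 149 of 472 cells at 0 mM, and after thinning in 56.4% and 12.5%. No cell type that lacks the gene was present to measure free RNA. HLA-DMA, the partner of HLA-DMB, stood at 287 and 67.0 CPM at 0 mM and at 539 and 107 CPM at 2 mM, with ratios of 4.28 (3.33 to 5.49) and 5.02 (3.97 to 6.32).

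Among the scarcer chains, HLA-DRB5, HLA-DQB1, HLA-DQA1 and HLA-DOA had more UMIs in class II-high than in class II-low cells, although the former were fewer. The cells ranked between the 2 groups held further UMIs of them. Over all ranked cells HLA-DRB5 had 82 UMIs at 0 mM and 232 at 2 mM, and HLA-DQB1 32 and 110. HLA-DRB5, a second DR beta chain, had 29 UMIs in class II-high against 18 in class II-low cells at 0 mM, and 63 against 46 at 2 mM. HLA-DQB1 had 16 against 6 UMIs and then 40 against 10, which at 2 mM is a ratio of 28.9 (14.2 to 64.7). HLA-DQA1, its partner, had 10 UMIs in class II-high and 0 among the 2268157 UMIs of the class II-low cells at 0 mM, at least 18.9-fold higher against a floor of 3 counts over the group. It had 14 against 4 UMIs at 2 mM. HLA-DOA, a chain of the HLA-DM modulator HLA-DO, had 7 against 0 and then 19 against 6 UMIs. Its partner HLA-DOB had 0 against 2 and 2 against 2, too few to compare.

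**Figure D2:**
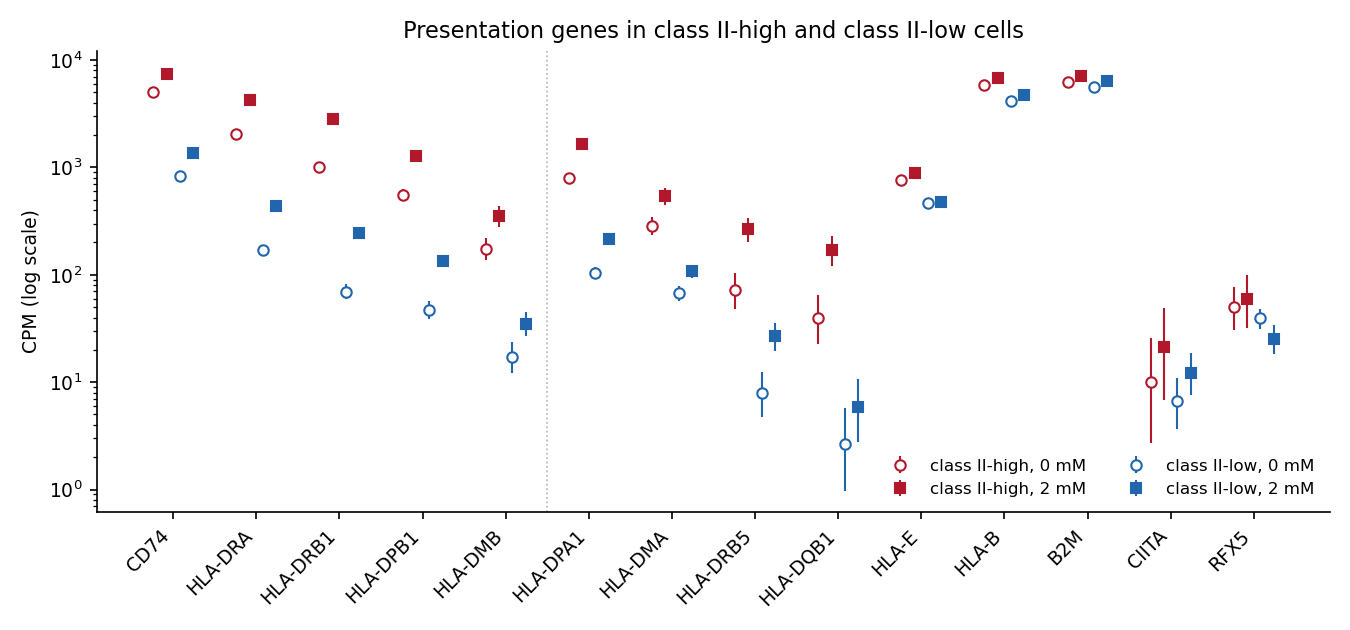
Levels of antigen presentation genes in CPM (vertical axis, log scale) in class II-high (red) and class II-low (blue) cells at 0 mM (open circles) and 2 mM (filled squares). Bars are exact Poisson 95% intervals and cover counting error only, and the genes left of the dotted line chose the cells. HLA-DPA1 and HLA-DMA stand apart between the groups, whereas CIITA overlaps and B2M is nearly level.

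CIITA, the coactivator of these promoters, was close to the limit of detection. It had 4 UMIs in class II-high and 15 in class II-low cells at 0 mM, and 5 and 21 at 2 mM. The ratios were 1.51 (0.364 to 4.73) and 1.72 (0.506 to 4.68), so a difference was not detectable at this depth. RFX5, a DNA-binding subunit of the RFX complex, gave ratios of 1.27 (0.741 to 2.08) and 2.35 (1.19 to 4.38) at levels under the minimum. None of the 8 genes listed for class II transcription passed the minimum in both libraries.

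Class I and peptide-loading genes had medians above that of all genes. At 0 mM 14 of the 15 members that passed in both libraries had a ratio above 1, with a median log2 ratio of 0.24, and at 2 mM 11 of 15, with a median of 0.27. Of all 1970 genes that passed, 860 and 845 had a ratio above 1, with medians of -0.05 and -0.08. After each cell was thinned to 1000 UMIs before ranking, the 0 mM median was 0.08, and in cells with few cycle UMIs the 2 mM median was -0.03, the opposite direction. HLA-E, a class I molecule read by natural killer cells, was the one list member at least 1.5-fold higher in both libraries, with 763 against 461 CPM and 889 against 473 CPM, ratios of 1.65 (1.45 to 1.88) and 1.88 (1.61 to 2.19). Its 0 mM ratio was 1.37 after that thinning and its 2 mM ratio 1.32 in cells with few cycle UMIs. HLA-B stood at ratios of 1.42 and 1.43 and B2M, the shared light chain, at 1.11 and 1.12. Reads of the class I heavy chains can be shared between paralogs.

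Endosomal processing genes were mixed. Of 8 members that passed in both libraries, 6 had a ratio above 1 at 0 mM and 5 at 2 mM, with medians of 0.17 and 0.32. CTSD, an aspartic protease of lysosomes, stood at 5007 against 2612 CPM at 0 mM, a ratio of 1.92 (1.82 to 2.02), and at 2756 against 2227 CPM at 2 mM, a ratio of 1.24 (1.14 to 1.34). CTSL, a cysteine protease able to degrade the invariant chain, had ratios of 0.863 and 0.604.

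Across all genes, 108 of 2153 (5.02%) were at least 1.5-fold higher in class II-high cells at 0 mM and 145 (6.73%) lower. At 2 mM the shares were 9.65% and 12.7% of 2289 genes, where the class II-high cells held 237318 UMIs in all. Of 1970 genes that passed in both libraries, 29 (1.47%) were higher in both and 68 (3.45%) lower in both. The rule genes are left out of these counts.

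FN1, the matrix protein fibronectin, stood at 471 CPM in class II-high and 205 CPM in class II-low cells at 0 mM, and at 775 and 383 CPM at 2 mM. Its ratios were 2.29 (1.93 to 2.72) and 2.03 (1.71 to 2.39), and it was detected in 66 of 94 and 64 of 80 class II-high cells. VIPR1, a receptor for vasoactive intestinal peptide, had ratios of 3.49 (2.32 to 5.21) and 2.46 (1.57 to 3.76) on 42 and 30 UMIs in class II-high cells.

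Other genes higher in both libraries belonged to several kinds. GPX3, a secreted glutathione peroxidase, had ratios of 2.91 and 2.32, although 26 of its 112 UMIs at 0 mM came from 1 cell. NQO1, a quinone reductase of the NRF2 programme, had ratios of 1.66 and 1.77, and KRT81, a hair keratin, of 2.16 and 2.43. LGALS3BP, a secreted galectin ligand, stood at 863 against 429 CPM at 0 mM, a ratio of 2.01 (1.77 to 2.28), and of 1.66 (1.43 to 1.92) at 2 mM. S100A4, a calcium-binding protein of mesenchymal cells, had 2.11 and 1.54, the latter being 1.24 when cells were thinned before ranking. CXCL1, a neutrophil chemokine, had 1.87 and 2.11, but its 0 mM ratio was 0.821 in the highest 5% of cells. The size of these ratios lay well under those of the class II chains.

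**Figure D3:**
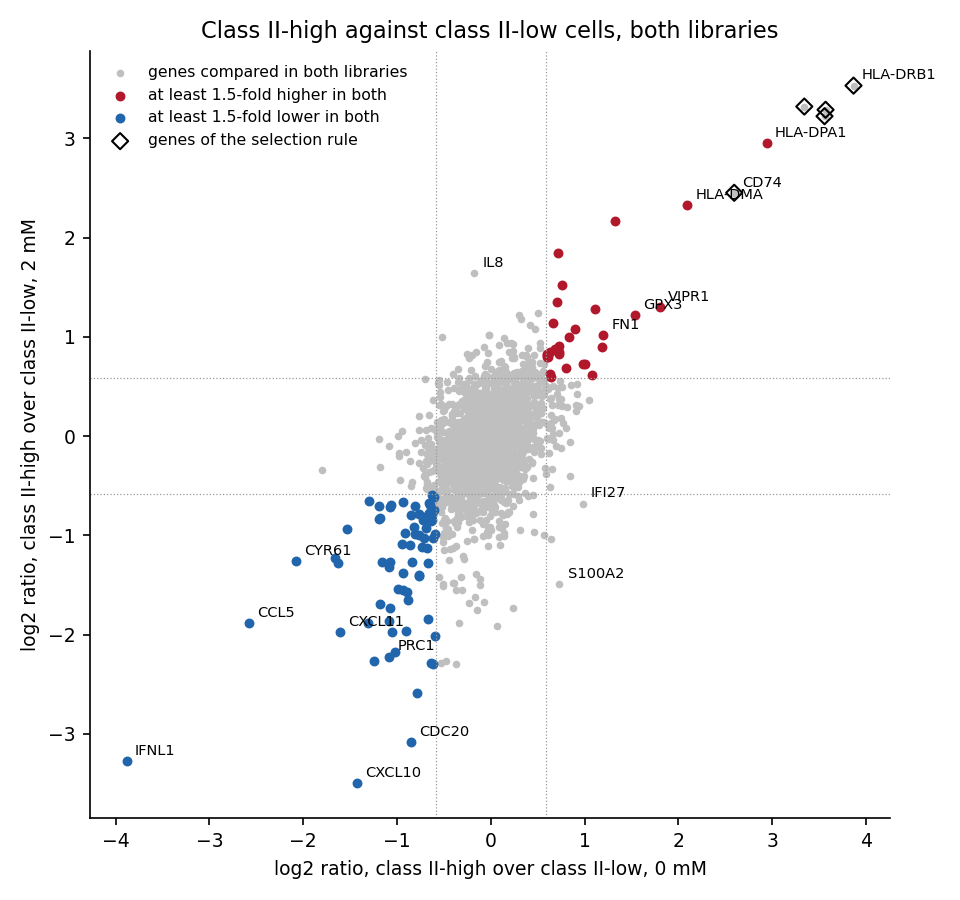
Log2 ratio of class II-high over class II-low cells at 0 mM (horizontal axis) and at 2 mM (vertical axis) for each gene compared in both libraries. Dotted lines mark 1.5-fold, red points the 29 genes higher in both, blue points the 68 lower in both, and diamonds the rule genes. IFNL1 is drawn with a floor of 3 counts in place of 0, and HLA-DPA1 lies next to the rule genes.

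IFNL1 was not detected in class II-high cells, and several interferon-induced chemokines stood lower in them. IFNL1, a type III interferon, had 0 of 401053 UMIs in class II-high cells at 0 mM, and 250 UMIs in 28 of 472 class II-low cells. At 2 mM it had 0 of 237318 UMIs, and 210 UMIs in 18 of 400 class II-low cells. Against a floor of 3 counts it was thus 14.7-fold lower at 0 mM and 9.70-fold lower at 2 mM. The 0 of 94 and 0 of 80 cells allow shares of up to 3.19% and 3.75% of cells with a UMI of it. This does not limit the share of cells that express it. As few class II-low cells held all of its UMIs, with up to 46 and 60 in 1 cell, the counting intervals understate the sampling error of this gene.

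CCL5, a T cell chemokine, stood at 34.9 CPM in class II-high and 208 CPM in class II-low cells at 0 mM, and at 37.9 and 140 CPM at 2 mM, ratios of 0.168 (0.091 to 0.284) and 0.271 (0.122 to 0.522). CXCL11 had ratios of 0.329 and 0.254. CXCL10, induced like CXCL11 by interferons, had 26 against 395 UMIs at 0 mM, a ratio of 0.372 (0.240 to 0.554), and 3 against 244 UMIs at 2 mM, a ratio of 0.0887 (0.0182 to 0.262). The 0 mM ratio of CXCL10 was 0.767 in the highest 20% of cells and 0.829 where cells were ranked on a random part of the UMIs and measured on the rest. PMAIP1, a proapoptotic BCL2-family protein, had ratios of 0.506 and 0.344, and IFIT2, an antiviral RNA-binding protein, of 0.346 and 0.524.

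Antiviral interferon-stimulated genes were mostly lower in class II-high cells at 2 mM. Of 17 members that passed in both, 1 was lower and 1 higher at 0 mM, with a median log2 ratio of 0.09, whereas at 2 mM 12 were lower, as were 12.7% of all genes, and 1 higher, with a median of -0.89. DDX58, the RNA sensor RIG-I, had a ratio of 0.851 (0.704 to 1.02) at 0 mM and 0.312 (0.202 to 0.462) at 2 mM. IFIH1, the sensor MDA5, had 0.758 and 0.357, and OASL, an oligoadenylate synthetase-like protein, 1.05 and 0.265. The difference between the libraries was not tested. Without cells holding an IFNL1 UMI the 2 mM median was -0.49, and against class II-low cells matched on total UMIs it was -0.60.

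The shares of cells give another view of the same genes. After thinning, 3 or more interferon-list UMIs were found in 77.7% of class II-high and 70.8% of class II-low cells at 0 mM and in 63.8% and 65.3% at 2 mM, with overlapping intervals. The mean number of such UMIs per cell was 9.52 and 10.5 at 0 mM and 5.58 and 9.32 at 2 mM. The 10% of cells highest in these transcripts included 6 of 94 class II-high cells (6.38%) at 0 mM and 3 of 80 (3.75%, 0.780% to 10.6%) at 2 mM, against 11.7% and 12.5% (9.42% to 16.1%) of class II-low cells. The 2 mM intervals overlap, and the difference was not tested.

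Genes of cell division were lower in class II-high cells. All 26 G2/M genes that passed in both libraries had a ratio below 1 in each. At 0 mM 17 were at least 1.5-fold lower, with a median log2 ratio of -0.78, and at 2 mM 22 were, with a median of -1.04. Of all genes, 6.73% and 12.7% were lower. PRC1, a bundler of spindle microtubules, stood at 219 against 465 CPM at 0 mM, a ratio of 0.472 (0.375 to 0.587), and at 71.6 against 334 CPM at 2 mM, a ratio of 0.214 (0.124 to 0.346). CENPF, a kinetochore protein, had ratios of 0.539 and 0.338, TPX2, an activator of the kinase AURKA, of 0.446 and 0.414, and DLGAP5, a spindle protein, of 0.404 and 0.272.

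At 0 mM the size of this difference varied with the handling of the deepest barcodes. When the deepest 5% of barcodes were left out, the G2/M median was -0.11 at 0 mM and -0.81 at 2 mM, and PRC1, DLGAP5, TPX2 and CENPF had 0 mM ratios of 0.7, 0.726, 0.729 and 0.817. With every cell weighted equally the medians were -0.34 and -1.23. Against class II-low cells matched on UMIs they were -0.63 and -0.78.

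S phase genes stood likewise. Of 11 that passed in both libraries, 6 were lower at 0 mM and 10 at 2 mM, 6 of them in both, with medians of -0.64 and -1.13. ATAD2, a chromatin protein of proliferating cells, had ratios of 0.316 (0.188 to 0.501) and 0.426 (0.235 to 0.716), and HELLS, a chromatin remodeller of S phase, of 0.441 and 0.310. HIST1H4C, a replication-dependent histone H4 gene, stood at 254 against 537 CPM at 0 mM and 131 against 435 CPM at 2 mM, ratios of 0.474 and 0.300. Its 0 mM ratio was 0.745 after thinning before ranking.

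**Figure D4:**
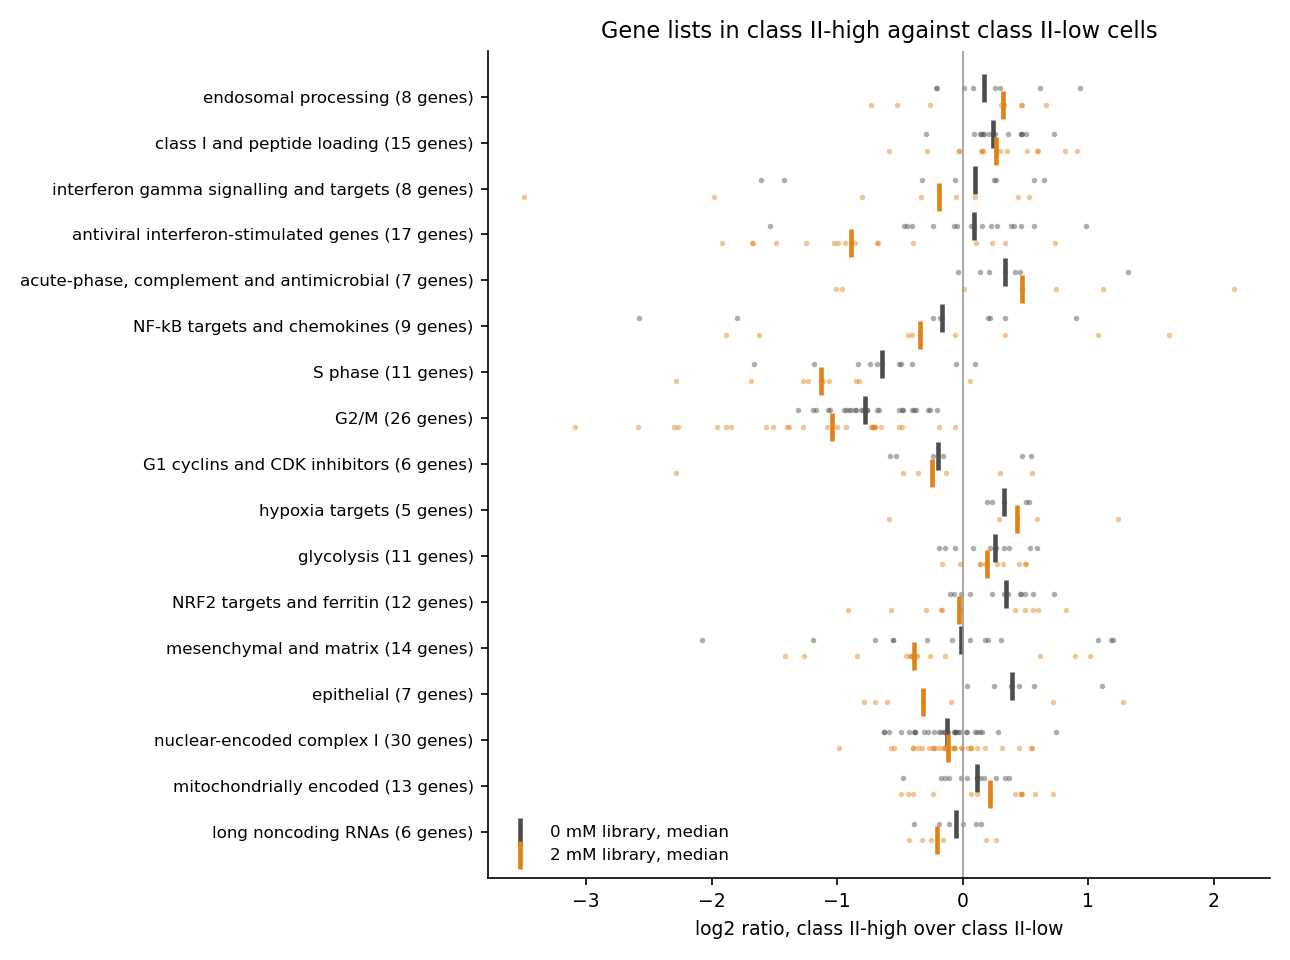
Log2 ratios of class II-high over class II-low cells (horizontal axis) for the genes of each list that passed in both libraries (points) and their median (vertical marks), at 0 mM (grey) and 2 mM (orange). The G2/M medians are -0.78 and -1.04, and the antiviral medians 0.09 and -0.89.

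In shares of cells, 3 or more G2/M UMIs at 1000 UMIs per cell were found in 48.9% (38.5% to 59.5%) of class II-high and 64.8% (60.3% to 69.1%) of class II-low cells at 0 mM, and in 32.5% (22.4% to 43.9%) and 53.5% (48.5% to 58.5%) at 2 mM. Without thinning these were 91.5% and 90.5%, and 75% and 88.3%. For S phase the thinned shares were 22.3% and 40.0% at 0 mM and 20% and 32% at 2 mM. The 10% of cells highest in G2/M transcripts held 10 of 94 class II-high cells (10.6%) and 11.7% of class II-low cells at 0 mM. At 2 mM they held 2 of 80 (2.5%, 0.304% to 8.74%) and 13.8%. Cells high in G2/M transcripts were thus among the class II-high cells of both libraries, and the differences in these shares were not tested.

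**Figure D5:**
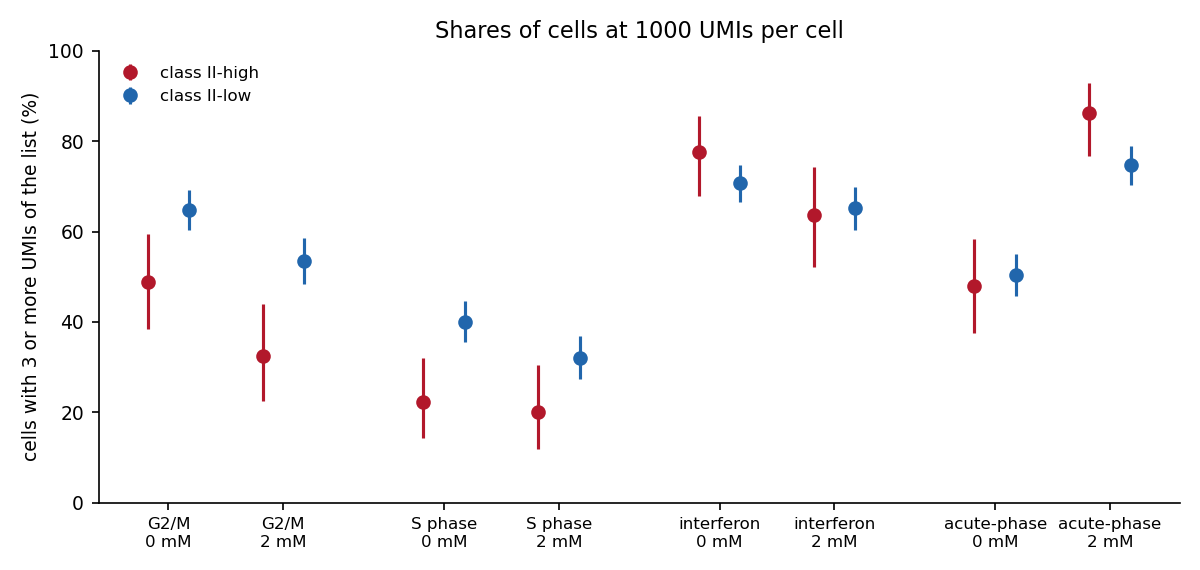
Percent of class II-high (red) and class II-low (blue) cells with 3 or more UMIs of each list after thinning every cell to 1000 UMIs (vertical axis), by list and library (horizontal axis). Bars are exact binomial 95% intervals and cover counting error only. G2/M and S phase shares are lower in class II-high cells in both libraries, at 48.9% against 64.8% for G2/M at 0 mM.

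CYR61, a secreted matrix protein and known target of the coactivator YAP, was among the genes lowest in class II-high cells. It stood at 135 against 568 CPM at 0 mM, a ratio of 0.237 (0.177 to 0.311), and at 206 against 495 CPM at 2 mM, a ratio of 0.417 (0.306 to 0.557). THBS1, thrombospondin and another such target, had ratios of 0.438 and 0.559. These 2 were lower in both libraries while FN1, TGFBI and S100A4 were higher, so the 14 mesenchymal and matrix genes that passed did not move one way, with medians of -0.01 and -0.39.

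The 7 acute-phase and antimicrobial genes that passed in both libraries had median log2 ratios of 0.34 at 0 mM and 0.47 at 2 mM. At least 1.5-fold, 1 was higher and 0 lower at 0 mM, and 3 were higher and 2 lower at 2 mM. Differences between the libraries were not tested. SAA1, serum amyloid A, stood at 1257 against 1291 CPM at 0 mM, a ratio of 0.973 (0.884 to 1.07), and at 4513 against 2695 CPM at 2 mM, a ratio of 1.67 (1.56 to 1.79). SAA2, a close paralog with which it can share reads, had ratios of 1.33 and 2.18. LCN2, an iron-siderophore binding protein, was under the minimum of 100 CPM at 0 mM and so is not among the 7. It had 23 against 20 UMIs at 0 mM and 85 against 211 at 2 mM, ratios of 6.50 (3.42 to 12.5) and 2.91 (2.23 to 3.76). Cells with 3 or more acute-phase UMIs after thinning made up 47.9% of class II-high and 50.4% of class II-low cells at 0 mM, and 86.3% (76.7% to 92.9%) and 74.8% (70.2% to 78.9%) at 2 mM. The 10% of cells highest in these transcripts included 8 of 94 class II-high cells (8.51%) at 0 mM and 21 of 80 (26.3%, 17.0% to 37.3%) at 2 mM, against 8.47% and 4.5% of class II-low cells. These 21 cells are likewise 26.3% of the 80 acute-phase-high cells.

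Within class II-high cells, 328 of 2271 genes (14.4%) were at least 1.5-fold higher at 2 mM than at 0 mM and 289 (12.7%) lower. The same comparison in class II-low cells gave 86 (3.98%) and 63 (2.91%) of 2163 genes, over sums of UMIs that were several times larger. The ratios below are of these 2 libraries and are set beside the same ratio in class II-low cells, and the difference between the 2 ratios was not tested. The rule genes, HLA-DPA1 and HLA-DMA were themselves higher at 2 mM in both groups, except that CD74 in class II-high cells stayed under 1.5-fold. Over all ranked cells CD74 had the smallest ratio of the rule genes, 1.46, and HLA-DRB1 the largest, 2.48. HLA-DRB1 had a ratio of 2.76 in class II-high and 3.49 in class II-low cells, and HLA-DPA1 of 2.06 and 2.05.

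Several genes for secreted proteins were among those higher at 2 mM. LCN2 went from 57.3 to 358 CPM in class II-high cells, a ratio of 6.25 (3.90 to 10.4), against 14 (8.82 to 23.3) in class II-low cells. SAA1 had ratios of 3.59 and 2.09, SAA2 of 4.57 and 2.80, and CXCL1 of 3.07 and 2.71. IL8, a neutrophil chemokine, stood at 137 and 434 CPM in class II-high cells, a ratio of 3.16 (2.26 to 4.47), and had 0.896 (0.757 to 1.06) in class II-low cells. It was detected in 25 of 94 and 34 of 80 class II-high cells. GCHFR, a regulator of GTP cyclohydrolase, had ratios of 6.48 and 3.11, GPR116, an adhesion receptor, of 4.65 and 3.45, and C9orf16 of 3.99 and 2.07. PRSS1, a trypsinogen, had 32 UMIs at 2 mM and 0 at 0 mM in class II-high cells, but 31 of the 32 were in 1 cell.

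Among genes lower at 2 mM in class II-high cells, some were lower in class II-low cells too. ID1 and ID3, inhibitors of basic helix-loop-helix factors and BMP targets, had ratios of 0.250 and 0.0960 in class II-high and 0.298 and 0.119 in class II-low cells. TCEA3, a transcription elongation factor, had 0.0831 (0.0167 to 0.255) and 0.476 (0.343 to 0.652). MGP, a matrix protein that inhibits calcification, had 43 UMIs in 13 class II-high cells at 0 mM and 0 at 2 mM. That is 8.48-fold lower against a floor of 3 counts, while the ratio of MGP in class II-low cells was 1.53 (0.928 to 2.54). LAPTM5 had 41 UMIs and 0, 8.09-fold lower against that floor, and a ratio of 0.257 in class II-low cells.

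S100A2, CD55, OASL, CCNB1 and CDC20 were further from 1 in class II-high cells. S100A2, a calcium-binding protein of epithelial cells, stood at 464 CPM without metformin and 88.5 CPM with it. The ratio was 0.191 (0.115 to 0.300), against 0.892 (0.787 to 1.01) in class II-low cells. CD55, an inhibitor of complement convertases, had 0.249 and 0.667, and OASL 0.201 and 0.794. CCNB1, cyclin B1, had 0.133 (0.0557 to 0.271) and 0.506, and CDC20, an activator of the anaphase-promoting complex, 0.150 and 0.705, on 8 and 4 UMIs at 2 mM.

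The other lists are given by their median log2 ratios, against -0.05 and -0.08 over all genes. The 30 genes for nuclear-encoded subunits of complex I had medians of -0.13 at 0 mM and -0.12 at 2 mM, and 13 mitochondrially encoded genes 0.11 and 0.22. Glycolysis genes, 11 in number, had 0.26 and 0.20. Genes of interferon gamma signalling and its targets, 8 of which passed, had 0.10 and -0.19. NRF2 targets and ferritin, 12 genes, had 0.35 and -0.03, and FTH1, the ferritin heavy chain, had a ratio of 1.47 in each library.

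Across single cells, the genes whose levels went most with the summed level of the 5 rule genes were HLA-DPA1 and HLA-DMA. Pearson correlations of log2(CPM + 100) were 0.448 over 944 cells at 0 mM and 0.589 over 800 cells at 2 mM for HLA-DPA1, and 0.307 and 0.353 for HLA-DMA. FTH1, HLA-B, HLA-C, B2M, CTSD, LGALS3BP and HLA-E followed, between 0.181 and 0.306. A rule gene against the other 4 gave 0.488 and 0.621 for HLA-DRA and 0.249 and 0.333 for HLA-DMB. These are descriptions over the cells of 1 library each, and depth was not held equal. Cells ranged from 1003 to 23485 UMIs at 0 mM and from 1001 to 22557 at 2 mM. They place the partner chains of HLA-DP and HLA-DM, which took no part in the choice of cells, nearest to the genes that did.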

How the data were processed

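One table of single-cell UMI counts was used, with a column for each barcode, in whole numbers as the authors deposited it. Per the submitters' processing notes, the tools included bcl2fastq and STAR 2.5.0a, and the genome build was hg19. Per the labels' protocols, libraries were made by PCR on beads and Nextera XT. The sources used here name neither the counter nor its treatment of reads shared by paralogs.

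Counts were summed over the cells of a group and expressed per 1000000 (CPM). Genes needed 100 CPM in either group and 30 UMIs over both. A gene under 100 CPM in one group thus entered only through the group where it was higher, which favours ratios away from 1. Intervals of ratios are conditional Clopper-Pearson, of single sums Poisson, of shares binomial, all at 95%. Genes to name were the 12 highest and 12 lowest in both libraries, the 10 highest and 10 lowest between doses, and the 10 most correlated, ranked by the interval bound nearest 1 or by correlation, with members of the lists; 2 genes that this names are not reported here. Mitochondrially encoded and ribosomal protein genes were left out of that ranking. The cells and gene lists were chosen with earlier results of these data known. As each dose was 1 library, no count model was fitted; edgeR 4.0.16 served only for TMM factors as an alternative. No doublet caller was run. Scripts were tested on simulated data. Alternatives varied the depth minimum, the percentile, weighting, ranking, barcode merging and filters. Python 3.11.15, numpy 2.4.6 and scipy 1.17.1 were used.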

Additional observations from a re-analysis of the deposited data

Results flagged for a closer look

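Of 1970 genes compared in both libraries, 3 were at least 1.5-fold higher in class II-high than class II-low cells at 0 mM and at least 1.5-fold lower at 2 mM, and 0 the other way. They were named after their values had been seen, and the differences between the libraries were not tested. IFI27, an interferon-induced membrane protein, had 74 UMIs in 40 class II-high cells and 212 in 108 class II-low cells at 0 mM, a ratio of 1.97 (1.49 to 2.58), and 47 in 28 and 544 in 174 cells at 2 mM, a ratio of 0.623 (0.453 to 0.841). S100A2 had ratios of 1.66 (1.40 to 1.96) and 0.355 (0.217 to 0.549), and was detected in 44 of 94 and 15 of 80 class II-high cells. SPR, sepiapterin reductase of the tetrahydrobiopterin pathway, had ratios of 1.56 (1.10 to 2.18) and 0.486 (0.247 to 0.871), on 45 and 12 UMIs in class II-high cells.

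Barcodes under 1000 UMIs, which took no part in the ranking, also held class II transcripts. At 0 mM 117 of 51073 UMIs in 56 such barcodes came from the 5 genes, a share of 0.229% (0.189% to 0.275%), and at 2 mM 699 of 149583 UMIs in 200 barcodes, a share of 0.467% (0.433% to 0.503%). A count of 0 would have allowed up to 0.00587% and 0.00201%. The ranked barcodes held 0.295% and 0.515%.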

How the results depend on the processing

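Of the settings, 3 were chosen after seeing the data: cells with few cycle UMIs, class II-low cells matched on UMIs, and cells without an IFNL1 UMI. Genes with under 30 UMIs over both groups under a setting have no value there. Counts of genes past 1.5-fold moved by over 1.5 times under several settings, and the cause was not tested except where a filter changes the number of genes compared.

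At 0 mM the 108 genes higher in class II-high cells were 50 with the highest 20% of cells, 164 when cells were ranked on one random part of their UMIs and measured on the other, 59 when ranked after thinning to 1000 UMIs, 28 with a minimum of 300 CPM, 757 with no CPM minimum and 182 in cells with few cycle UMIs. The 145 lower genes were 94, 234, 81, 20 and 1356 under the first 5 of these. At 2 mM the 221 higher genes were 363 with the highest 5%, 104 with the highest 20%, 359 under the random parts, 42 at 300 CPM, 909 with no minimum and 359 in cells with few cycle UMIs. The 290 lower genes were 181 with the highest 20%, 66 at 300 CPM and 1672 with no minimum.

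The 29 genes higher in both libraries were 48 with the highest 5%, 14 with the highest 20%, 49 under the random parts, 15 after thinning, 11 at 300 CPM, 168 with no minimum and 47 in cells with few cycle UMIs. The 68 lower in both were 29 after thinning, 40 when the deepest 5% of barcodes were left out, 10 at 300 CPM and 408 with no minimum. Between doses in class II-high cells, the 328 higher genes were 204 with the highest 20%, 61 at 300 CPM and 551 with no minimum, and the 289 lower genes were 74 at 300 CPM and 584 with no minimum.

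Of 506 list medians under alternatives, 18 moved beyond the interval of the main median. Of the 5 medians past 1.5-fold 1 changed sign under a setting, and of the 29 smaller ones 14 did, in 41 of 433 values. The G2/M median at 0 mM, -0.78, was -1.03 with the highest 5%, -0.34 with cells weighted equally, -0.92 under the random parts, -0.43 after thinning, -0.11 without the deepest 5% and 0.14 in cells with few cycle UMIs, which are chosen on these transcripts. At 2 mM, -1.04, it was -1.81 with the highest 5%, -0.69 after thinning and -0.28 in cells with few cycle UMIs. The S phase median at 2 mM was -0.79 at 2000 or more UMIs, -0.71 after thinning and -0.81 with matched cells. The antiviral median at 2 mM was -1.42 with the highest 5% and -1.34 in cells with few cycle UMIs. The class I median at 0 mM was 0.075 after thinning. For complex I subunits it was 0.0032 with the highest 5%, -0.030 after thinning and 0.042 in cells with few cycle UMIs at 0 mM, and 0.16 in the last at 2 mM.

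All 48 shares of cells taken at 2000 UMIs, at 5 or more list UMIs or without thinning lay outside the interval of the share reported, as these settings themselves move how many UMIs a cell can show. Among 188 single-gene ratios past 1.5-fold, 7 changed sign under 1 setting each, and among 246 smaller ones 131 did so under at least 1 setting, HLA-B and B2M at 2 mM and SAA1, OASL and CCNB1 at 0 mM among them. The 7 were the log2 ratios of CXCL1 at 0 mM (-0.28, highest 5%), PRSS1 at 2 mM (-0.51, random parts) and AURKA at 0 mM (0.0049, without the deepest 5%), and between doses in class II-high cells those of GPX3 (0.36, highest 5%), CYR61 (-0.28, after thinning), CKAP5 (0.0084, random parts) and KRT7 (0.064, after thinning). HLA-DPA1 and HLA-DMA had ratios of at least 5.93 and 3.93 in each library under every setting run.

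No paired analysis was possible because each dose was 1 library. There were no replicates to leave out, and intervals cover counting error only, so neither culture nor library variation is in them. PCR copies were removed only as far as the UMIs do so.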

Other observations

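Hypoxia targets had medians of 0.33 at 0 mM and 0.43 at 2 mM over the 5 genes that passed, against -0.05 and -0.08 over all genes. BNIP3L, a mitophagy receptor, had ratios of 1.42 (1.10 to 1.82) and 2.36 (1.77 to 3.11), P4HA2, a collagen prolyl hydroxylase, of 1.26 (0.934 to 1.67) and 1.51 (1.07 to 2.08), and BNIP3, a relative of BNIP3L, of 1.15 (0.854 to 1.52) and 0.666 (0.415 to 1.02), so that 2 genes were higher and 1 lower at 2 mM. Epithelial genes, 7 in number, had a median of 0.40 at 0 mM and of -0.31 at 2 mM, with KRT81 the one gene higher in both libraries. BIRC3, an NF-kB target that inhibits cell death, had ratios of 0.891 (0.740 to 1.07) and 0.326 (0.236 to 0.439), and PLAU, the urokinase protease, of 1.10 (0.881 to 1.36) and 0.496 (0.298 to 0.780). Differences between the libraries were not tested.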
